A study of Homo sapiens with 15 samples.

Results

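Gene expression was compared between A375 cells that carried RAC1 P29S and A375 cells that carried an empty vector, both untreated. A375 is an established human melanoma line with an activating BRAF mutation. The comparison used 6 of the 15 RNA sequencing libraries of the series, 3 RAC1 P29S and 3 empty-vector libraries. Libraries were assigned by their titles, because the entry for genotype names the empty vector also for the 3 libraries titled RAC1P29S. Both groups shared the line, the serum-containing medium and the absence of any drug, and the labels give no promoter for the transgene, no time after transduction and no clone. The 3 libraries of a group were described as biological triplicates, which does not say whether the vector was introduced 3 times, and the p-values therefore reflect only how these cultures vary. A later comparison used 6 further libraries, 3 of A375 cells that overexpressed VAV1 and 3 with an empty vector, all of them given vehicle. Of 16295 gene symbols listed for the untreated libraries, 14036 had at least 10 normalized counts in at least 3 of the 6 libraries and were tested.

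RAC1 is a small GTPase that switches between an inactive form bound to GDP and an active form bound to GTP. Guanine nucleotide exchange factors such as VAV1 load it with GTP, GTPase-activating proteins return it to the inactive form, and guanine nucleotide dissociation inhibitors hold it in the cytosol. Active RAC1 engages the PAK kinases and the WAVE complex, which drives branched actin polymerization by the ARP2/3 complex and the formation of lamellipodia. As actin monomers are used up, the coactivators MRTF-A and MRTF-B are released to join the transcription factor SRF. P29S, a change of proline to serine at codon 29, is a recurrent RAC1 mutation in cutaneous melanoma that speeds nucleotide exchange.

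The codons around the mutated position are shown for RAC1 and its nearest relatives, to place the change and to show how much sequence these genes share. Each line gives codons 25 to 33 of the reference coding sequence (GRCh38, GENCODE release 29 transcripts), 5′ to 3′, with codon 29 in capitals. None of them is a sequence read from the A375 libraries.
RAC1, chr7:6387249-6387275, plus strand: accaatgcatttCCTggagaatatatc
RAC2, chr22:37241595-37241621, minus strand: accaacgcctttCCCggagagtacatc
RAC3, chr17:82032424-82032450, plus strand: accaacgccttcCCCggagagtacatc
CDC42, chr1:22078551-22078577, plus strand: acaaacaaatttCCAtcggaatatgta
Codon 29 lies at chr7:6387261-6387263 in RAC1 and encodes proline in all 4 reference genes. The reference RAC1 protein was 92.2% identical to RAC2, 92.7% to RAC3 and 70.3% to CDC42.

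RAC1 was checked first, as the gene that defines the groups. RAC1 (chr7:6374523-6403977, GRCh38) had 31665, 30381 and 31705 normalized counts in the RAC1 P29S libraries, against 3747, 3821 and 3756 in the empty-vector libraries. The groups did not overlap, and the log2 fold change of 3.05 ± 0.04 (SE) corresponded to 8.28 times the control level (limma adjusted p = 1.9e-11). The level separated the libraries as their titles do. A value per symbol adds up the transgene and the cells' own RAC1, with or without the mutation. RAC1P2, a processed pseudogene of RAC1 on chromosome 4 whose sequence matches the RAC1 coding sequence at 572 of 576 bases (99.3%), had 1035, 1017 and 995 normalized counts in the RAC1 P29S libraries and 42.1, 14.5 and 34.9 in the empty-vector libraries. Reads of RAC1 can be assigned to so similar a copy, so the RAC1P2 value is uncertain. RAC2, the form of haematopoietic cells, had 31, 18.1 and 26.1 normalized counts with RAC1 P29S and 15.3, 3.83 and 4.31 with the empty vector (log2 fold change 1.77 ± 0.50, limma adjusted p = 0.021). The RAC2 call was lost without empty-vector library 2 or 3 (1.45 and 1.52) and without RAC1 P29S library 1 or 3 (1.61 and 1.72). RAC3, the form best known from neurons, had 153, 114 and 103 with RAC1 P29S and 119, 123 and 98.2 with the empty vector, overlapping values whose log2 fold change was 0.10 ± 0.18. VAV1 was not listed for the untreated libraries.

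The normalized libraries summed to 15873395 to 16262759 normalized counts with RAC1 P29S and to 15762216 to 16055376 with the empty vector, totals that the normalization makes alike and that do not show depth. The number of reads per library is not given in the sources used here. Mitochondrially encoded transcripts took 1.29% to 1.43% of the counts with RAC1 P29S and 1.29% to 1.59% with the empty vector. Log2 values across genes correlated at 0.9844 to 0.9873 within a group and at 0.9553 to 0.9576 between the groups. A log2 fold change is the difference of 2 group means of log2(normalized count + 1), and the added 1 shrinks it where counts are low.

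In the comparison across all genes, 4369 of 14036 genes passed a limma adjusted p of 0.05, which is 31.1%. The calls were balanced, with 2194 genes higher with RAC1 P29S (15.6%) and 2175 lower (15.5%), and the median log2 fold change over all tested genes was -0.0043. Most changes were small: 1057 of the called genes differed by more than 2-fold (7.53% of those tested), 582 of them higher (4.15%) and 475 lower (3.38%). More than 4-fold differences were found in 313 genes (2.23%), 212 higher (1.51%) and 101 lower (0.720%). All 3 RAC1 P29S libraries lay on the same side of all 3 empty-vector libraries in 6317 genes (45.0%), 3170 of them higher with RAC1 P29S (22.6%) and 3147 lower (22.4%), so such separation was common. "Rose" and "fell" are used below only for genes past the threshold of 0.05.

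**Figure D1:**
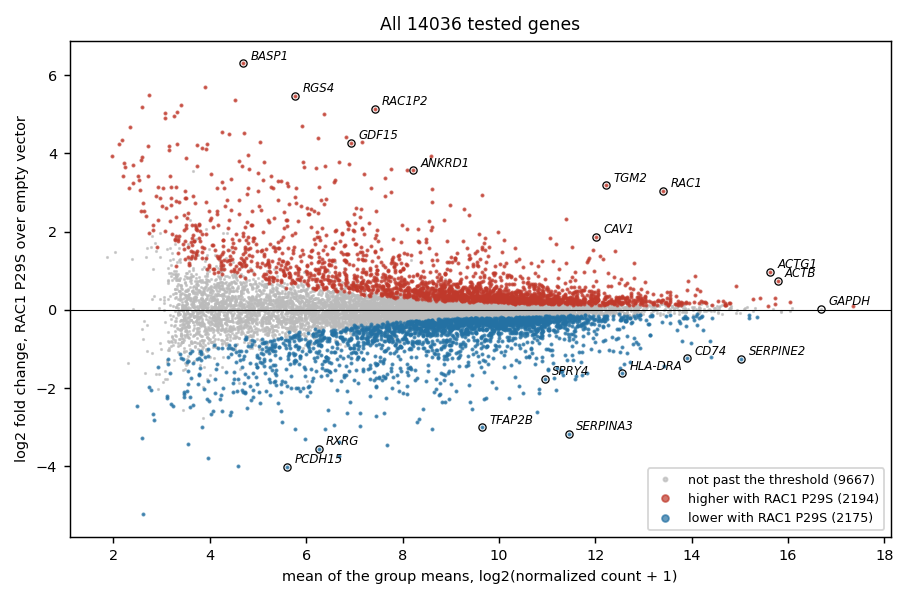
Each point is 1 of the 14036 tested genes, with the mean of the 2 group means as log2(normalized count + 1) on the horizontal axis and the log2 fold change of RAC1 P29S over empty vector on the vertical axis. The 2194 genes that rose are red, the 2175 that fell are blue and the others grey. RAC1 and TGM2 combined a high level with log2 fold changes of 3.05 and 3.18, and GAPDH lay at 0.03.

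The 5 largest gains in mean normalized count were those of ACTG1, ACTB, RAC1, FLNA and TGM2, and the 5 largest losses those of SERPINE2, GNAS, CD74, SPARC and TNC. ACTG1 (chr17:81509971-81523847), cytoplasmic gamma actin, had 75288, 64369 and 74998 normalized counts with RAC1 P29S and 36159, 39601 and 33712 with the empty vector. ACTB (chr7:5527147-5563784), beta actin, had 71899, 69518 and 78788 with RAC1 P29S and 44099, 47125 and 40799 with the empty vector, and FLNA, a crosslinker of actin filaments, had 38386, 36713 and 40751 with RAC1 P29S, against 25540.5, 25686 and 24685 with the empty vector. All 3 were higher in each RAC1 P29S library than in any empty-vector library, as were 22.6% of all genes. TGM2 (chr20:38127387-38166578), a transglutaminase that crosslinks proteins of the matrix, rose to 14500.2 ± 478 normalized counts (SD, n = 3), against 1597 ± 118 with the empty vector, a log2 fold change of 3.18 ± 0.06 (SE, limma adjusted p = 3.1e-10). SERPINE2, a secreted inhibitor of thrombin and plasminogen activators, had 21492, 21306 and 22521 with RAC1 P29S, against 52605, 50192 and 51834 with the empty vector. GNAS, the stimulatory G protein subunit that activates adenylyl cyclase, fell to 14393 ± 650.3 with RAC1 P29S, against 33055 ± 1314 (SD, n = 3). SPARC and TNC, both matrix proteins that modulate adhesion, had log2 fold changes of -0.81 ± 0.04 and -1.44 ± 0.06.

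The 15 highest fold changes among genes that reached 64 normalized counts belonged to genes with low counts in the controls. BASP1 (chr5:17065598-17276843), a membrane protein of neuronal growth cones, had 223, 232 and 232 normalized counts with RAC1 P29S and 2.26, 1.04 and 2.72 with the empty vector (log2 fold change 6.30 ± 0.29, limma adjusted p = 1.3e-07). RGS4 (chr1:163068775-163076802), which speeds GTP hydrolysis by G protein alpha subunits, had 344, 374 and 371 with RAC1 P29S, against 7.17, 7.89 and 6.61 with the empty vector. MARCH4, a membrane-bound ubiquitin ligase, had 513, 525 and 532 with RAC1 P29S, against 24, 25.2 and 21.1. For these 3 genes every RAC1 P29S library lay more than 15 times above the highest empty-vector library. The set was chosen for high fold change and no overlap, so a wide gap follows from the choice. KCNE4, a potassium channel subunit, rose by 4.28, DMKN, a secreted protein of the epidermis, by 4.38, and MME, the cell surface peptidase neprilysin, by 4.70 on the log2 scale. IGFN1, PLEKHA6, SEMA5A, VSTM1, TRBC2 and ALS2CL rose by 4.30 to 5.36. SEMA5A varied between libraries, with 158, 57.3 and 209 in the RAC1 P29S libraries and 6.86, 4.91 and 2.44 in the empty-vector libraries. CGB8 and ANXA8 are also in this set, at 5.69 and 5.23, but both have near-identical gene copies between which reads can be split.

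The 15 lowest fold changes included transcription factors of the neural crest and several secreted proteins. TFAP2B (chr6:50818723-50847613), a neural crest transcription factor, had 270.3, 288 and 291 normalized counts with RAC1 P29S and 2220.2, 2325 and 2267 with the empty vector (log2 fold change -3.0 ± 0.07, limma adjusted p = 1.4e-09). SERPINA3 (chr14:94612377-94624055), the secreted protease inhibitor alpha-1-antichymotrypsin, had 979.6, 907 and 918 with RAC1 P29S and 8599, 8442 and 8262 with the empty vector, and its log2 fold change was -3.17 ± 0.05. RXRG, a retinoid X receptor, had 17.9, 18.8 and 28.9 with RAC1 P29S, against 274, 259 and 252. The groups were separated by at least 7-fold in each of these 3 genes. This set was likewise chosen for low fold change and no overlap, so wide separation follows from the choice. HTRA1, a secreted serine protease, had 122, 129.8 and 156 with RAC1 P29S, against 1087, 1093 and 1181, and PDE3A, a phosphodiesterase that degrades cyclic AMP, had 70.8, 62.5 and 51.5, against 695, 624 and 717. SOD3, the extracellular superoxide dismutase, fell by 3.73 and PCDH15, a protocadherin, by 4.0 on the log2 scale. The others of the 15, TRIM51, FDCSP, SPRR2D, ITIH5, TESC, LRRK2, SLC24A3 and GRM8, had log2 fold changes of -3.98 to -2.87.

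**Figure D2:**
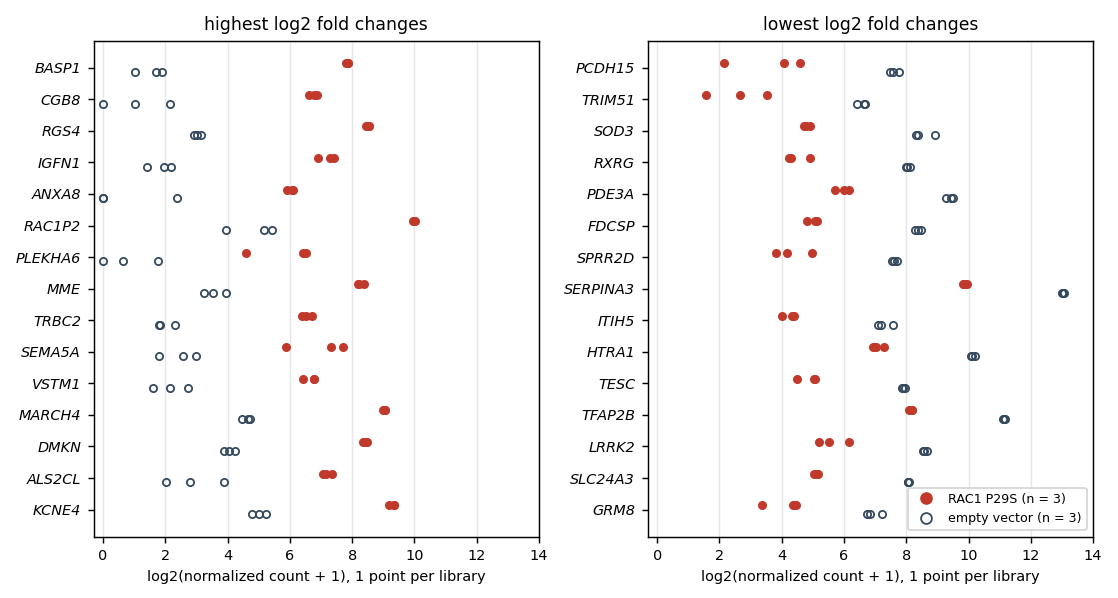
Log2(normalized count + 1) of the genes with the 15 highest (left) and 15 lowest (right) log2 fold changes, 1 point per library, with the 3 RAC1 P29S libraries as filled red points and the 3 empty-vector libraries as open points. No gene has overlapping groups, which the choice of these genes required, and PCDH15, TRIM51 and PLEKHA6 show the widest spread between RAC1 P29S libraries.

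The genes were then read in 40 lists, described by the number of tested members past the threshold beside the 31.1% of all genes. By direction, 15.6% of all genes rose and 15.5% fell. Lists differ in the level of their genes, and a gene counted in only 1 group also passes the filter, so these shares are descriptions and not tests.

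Regulators and effectors of RAC1 moved in both directions. RHOF, a GTPase of filopodia, had 569.6, 569 and 683 normalized counts with RAC1 P29S and 223, 245 and 287 with the empty vector. RHOA, which drives contractile stress fibres, rose by 0.27 ± 0.04 on the log2 scale, and its paralogue RHOC had a log2 fold change of -0.54 ± 0.05. CDC42 had 4663, 4471 and 4436 with RAC1 P29S and 4344, 3872 and 4032 with the empty vector, with an adjusted p of 0.052 by limma. Of 32 exchange factors, 8 rose and 10 fell. DOCK2 (chr5:169637247-170083382), the RAC exchange factor of leukocytes, had 609, 488 and 543 with RAC1 P29S, against 63.6, 70.2 and 80.3 with the empty vector, a log2 fold change of 2.92 ± 0.13 (limma adjusted p = 1.1e-07). TRIO, an exchange factor for RAC1 and RHOG, rose by 0.86 ± 0.08. TIAM1, a RAC-specific exchange factor, had 369.6, 548 and 395 with RAC1 P29S, against 855, 861 and 814, and FARP1 had a log2 fold change of -1.20 ± 0.07. The groups did not overlap for DOCK2 or TIAM1, which moved in opposite directions.

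Of 19 genes that restrain RAC proteins, 7 rose and 3 fell. ARHGDIB, the dissociation inhibitor of haematopoietic cells, had 165, 160.3 and 189.6 normalized counts with RAC1 P29S, against 41.1, 23.9 and 24.5 with the empty vector. ARHGDIA, the ubiquitous dissociation inhibitor, had 8257, 8139 and 8779, against 7523, 7052 and 6274, a log2 fold change of 0.28 ± 0.06. ARHGAP22 and SRGAP1, both RAC GTPase-activating proteins, rose by 1.31 and 1.21, and ARHGAP31 had a log2 fold change of -1.06. FAM49A, whose product CYRIA binds active RAC1 and restrains the WAVE complex, had 19.7, 19.6 and 10.1 with RAC1 P29S, against 0, 0 and 1.37 with the empty vector. Among 25 PAK and WAVE complex genes 8 rose and 2 fell, beside 15.6% and 15.5% of all genes. PAK1 had 1014, 989.6 and 1051 with RAC1 P29S and 937, 1058 and 966 with the empty vector, which overlap, whereas PAK2 rose by 0.31 ± 0.07. CYFIP2, a WAVE complex subunit that binds RAC1, rose by 0.83 ± 0.12, and ABI3, another WAVE complex subunit, reached 27.6, 24.8 and 25.2 normalized counts with RAC1 P29S, against 3.21, 3.15 and 2.58. CDC42EP1, an effector of CDC42, rose by 1.77 ± 0.15. Of the 22 ARP2/3 subunits and formins, 6 rose and 3 fell, led by the formins FMNL1 at 2.02 ± 0.17 and DAAM2 at -1.56 ± 0.07. The NADPH oxidase genes, whose enzyme in phagocytes needs RAC, had 3 tested members of 15 (NOX4, NOX5 and CYBA) and no call. Haematopoietic markers moved beside RAC2, DOCK2, ARHGDIB, ABI3 and FMNL1: the summed level of the 7 listed markers of 12 was 1273 to 1509 normalized counts with RAC1 P29S and 568 to 712 with the empty vector. LCP1 and CD68 rose, by 3.79 and 1.45, while CORO1A and LAPTM5 had log2 fold changes of 0.30 and -0.21. PTPRC had 1.67, 21.5 and 3.93 with RAC1 P29S and 4.26, 1.96 and 6.99 with the empty vector, and CD3E, SPI1, ITGAM and TYROBP were not listed. Their part in these results was not tested.

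Most targets of SRF and its MRTF coactivators, many of them actin and actin-binding proteins, rose. Of 30 members 26 were tested, of which 21 rose and 1 fell, beside 15.6% and 15.5% of all genes. The median log2 fold change was 0.58. TAGLN (chr11:117199321-117204782), the smooth muscle actin-binding protein transgelin, had 486, 478 and 494 normalized counts with RAC1 P29S and 37.7, 66.3 and 31.6 with the empty vector (log2 fold change 3.47 ± 0.23, limma adjusted p = 2.4e-06). VCL (chr10:73995193-74121363), vinculin of focal adhesions, had 3344, 3346 and 3602 with RAC1 P29S and 1432, 1441 and 1444 with the empty vector, and its log2 fold change was 1.25 ± 0.05. Both genes were separated without overlap, as were 22.6% of all genes in this direction, and the 3 VCL values of each group lay close together. The tropomyosins TPM1 and TPM4, which coat actin filaments, rose by 1.05 ± 0.05 and 0.81 ± 0.04. The myosin II genes split: MYL9, a regulatory light chain, and MYH9, a heavy chain, rose by 1.53 ± 0.16 and 0.79 ± 0.06, and the heavy chain MYH10, the member that fell, had -0.46 ± 0.05. SRF itself had 1128, 1152 and 1095 with RAC1 P29S and 1133, 1115 and 1051 with the empty vector, so its own transcript level overlapped between the groups. The coactivator gene MKL1 had a log2 fold change of -0.15 that did not pass the threshold.

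The CArG box, which SRF binds, was looked for on both strands in the 250 bases before the transcription start of the 10261 tested genes with a RefSeq promoter entry. It was found in 1.0% of these promoters, and in 5 of the 18 that belong to the SRF and MRTF targets that rose (27.8%), beside 6 of 21 for all tested targets of this list (28.6%). The 3 of them with the smallest adjusted p are shown 5′ to 3′ on the strand of the gene (RefSeq, GRCh38.p14), with the CArG box in capitals, because they stand before genes of the actin filament itself.
TPM4, chr19:16067288-16067537, plus strand: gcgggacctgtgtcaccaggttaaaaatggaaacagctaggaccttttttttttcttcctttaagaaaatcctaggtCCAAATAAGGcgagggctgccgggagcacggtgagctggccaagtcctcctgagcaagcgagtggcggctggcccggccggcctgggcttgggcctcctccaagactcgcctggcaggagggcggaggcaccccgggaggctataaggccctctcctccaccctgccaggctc
FLNA, chrX:154374635-154374884, minus strand: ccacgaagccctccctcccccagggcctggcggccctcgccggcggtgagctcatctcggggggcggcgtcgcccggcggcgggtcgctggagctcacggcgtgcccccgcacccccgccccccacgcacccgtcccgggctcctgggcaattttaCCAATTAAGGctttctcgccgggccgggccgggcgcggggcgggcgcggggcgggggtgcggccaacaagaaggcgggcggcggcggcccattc
ACTG1, chr17:81512800-81513049, minus strand: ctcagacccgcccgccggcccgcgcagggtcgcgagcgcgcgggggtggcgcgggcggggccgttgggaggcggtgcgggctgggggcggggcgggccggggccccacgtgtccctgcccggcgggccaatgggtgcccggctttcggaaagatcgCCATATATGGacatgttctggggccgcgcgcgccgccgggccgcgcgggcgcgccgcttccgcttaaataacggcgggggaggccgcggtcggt
The box began 173 bases before the start in TPM4 and 94 bases before it in both FLNA and ACTG1. The CArG box was equally common among all genes that rose (1.6%) and all that fell (1.5%). A match shows only that these letters are present.

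Targets of YAP and TEAD, the effectors of the Hippo pathway that respond to adhesion and actin tension, mostly rose as well. All 25 members were tested, 17 rose and 4 fell, beside 15.6% and 15.5% of all genes, and the median log2 fold change was 0.66. ANKRD1 (chr10:90912096-90921276), an ankyrin repeat cofactor and common reporter of YAP, had 1085, 1025 and 973 normalized counts with RAC1 P29S and 93.5, 84.9 and 78.7 with the empty vector (log2 fold change 3.57 ± 0.10, limma adjusted p = 6.2e-09). CYR61, a secreted matricellular protein, had 1935, 2014 and 2199.9 with RAC1 P29S, against 594, 620.1 and 558 with the empty vector. Its relative CTGF had 1354, 1475 and 1439 with RAC1 P29S, against 628, 673 and 667 with the empty vector. The groups did not overlap in any of the 3, as in 22.6% of all genes in this direction, and ANKRD1 had the largest fold change of the 3. AXL, a receptor kinase linked to drug tolerance in melanoma, had 10914, 10249 and 11227 with RAC1 P29S and 4652, 4897 and 4684 with the empty vector. CRIM1, AMOTL2 and DLC1 rose by 1.27, 1.21 and 1.40. The coactivator genes did not rise. YAP1 had 2168, 2174 and 2422, against 2304, 2541 and 2603, which overlap, with a limma adjusted p of 0.14. WWTR1, the gene of TAZ, had 5096, 5116 and 5162 with RAC1 P29S, against 8137, 8262 and 8109 with the empty vector. WWTR1 was thus lower in each RAC1 P29S library than in any empty-vector library, as were 22.4% of all genes. IGFBP3, a binding protein of insulin-like growth factors, was the target with the lowest log2 fold change, -1.24 ± 0.06.

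The core TEAD motif, GGAATG or CATTCC on the other strand, was present in the same window of 9.4% of all tested promoters and in 4 of 12 promoters of the YAP and TEAD targets that rose (33.3%), beside 5 of 18 for all tested targets of that list (27.8%). A CArG box ends in GG and can share these letters with a TEAD motif. The 2 promoters below belong to 2 widely used reporters of YAP activity, and the motif is in capitals.
ANKRD1, chr10:90921088-90921337, minus strand: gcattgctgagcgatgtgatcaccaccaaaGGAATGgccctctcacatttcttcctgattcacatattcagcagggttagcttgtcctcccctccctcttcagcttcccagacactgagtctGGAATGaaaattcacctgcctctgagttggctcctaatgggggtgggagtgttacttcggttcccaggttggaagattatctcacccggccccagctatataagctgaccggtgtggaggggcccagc
CTGF, chr6:131951373-131951622, minus strand: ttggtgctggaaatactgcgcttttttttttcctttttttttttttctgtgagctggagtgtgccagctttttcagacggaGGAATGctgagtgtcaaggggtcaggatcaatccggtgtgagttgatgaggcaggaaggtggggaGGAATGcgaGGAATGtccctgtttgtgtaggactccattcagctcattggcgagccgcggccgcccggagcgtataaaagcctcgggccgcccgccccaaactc
ANKRD1 had 2 copies, beginning 220 and 128 bases before the start, and CTGF had 3, the first 169 and the last 95 bases before it. Among all genes the motif stood in 9.6% of the promoters of genes that rose and in 8.6% of those that fell.

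**Figure D3:**
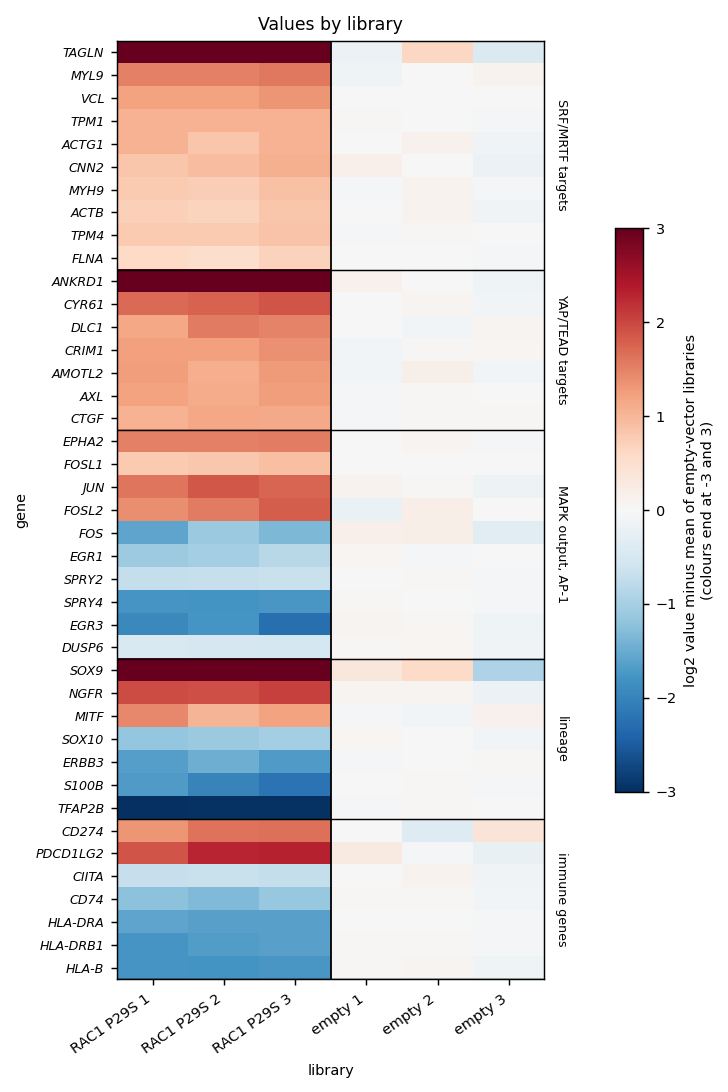
Log2 value of each library minus the mean of the 3 empty-vector libraries, for genes of the lists described in the text, with RAC1 P29S libraries left of the black line and empty-vector libraries right of it. Colours end at -3 and 3. The 3 RAC1 P29S libraries share the sign of the change in every row, and TAGLN, ANKRD1, SOX9 and TFAP2B reach or pass the ends of the scale.

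Transcripts that report MAPK pathway output moved mostly the other way, in a line whose BRAF mutation drives that pathway. Of 24 members, all tested, 16 fell and 4 rose, beside 15.5% and 15.6% of all genes. The median log2 fold change was -0.36. SPRY4 (chr5:142310427-142326455), a feedback inhibitor of receptor signalling, had 1078, 1062 and 1088 normalized counts with RAC1 P29S and 3768, 3652 and 3588 with the empty vector (log2 fold change -1.77 ± 0.05, limma adjusted p = 5.7e-09). DUSP6, the ERK phosphatase, had 2347, 2285 and 2266 with RAC1 P29S and 3331, 3398 and 3019 with the empty vector. SPRY2 and PHLDA1 had log2 fold changes of -0.69 ± 0.05 and -0.48 ± 0.05. The immediate early transcription factors EGR1 and EGR3 had log2 fold changes of -0.98 ± 0.10 and -1.98 ± 0.14. The 4 members that rose were EPHA2, FOSL1, CCND1 and LIF. EPHA2, an ephrin receptor, had 9122, 9112 and 9304 with RAC1 P29S, against 3193, 3389.5 and 3066, and FOSL1, an AP-1 subunit whose protein ERK stabilizes, had 7004, 7084 and 7503, against 4101, 4019 and 4011. CCND1, cyclin D1, rose by 0.33 ± 0.07.

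AP-1 subunits moved in both directions, with JUN and FOSL2 higher and FOS lower. Of 15 tested AP-1 and related factors, 6 rose and 5 fell. JUN had 538, 641 and 590.3 normalized counts with RAC1 P29S and 189, 181 and 158 with the empty vector, a log2 fold change of 1.74 ± 0.11. FOSL2 had 978, 1099 and 1307 with RAC1 P29S and 326, 426 and 371 with the empty vector. FOS had 47.4, 66.4 and 56 with RAC1 P29S and 161, 164 and 113 with the empty vector, and FOSB had a log2 fold change of -1.36 ± 0.12. MAF fell to 123 ± 19, against 409.9 ± 85.8 (SD, n = 3). The members that rose were JUN, FOSL1, FOSL2, BATF2, MAFK and ATF3, and those that fell FOS, FOSB, JUNB, MAF and MAFF. The AP-1 motif TGANTCA, searched on both strands, was in 5.1% of the promoters of all genes that rose, 4.3% of those that fell and 4.0% of all tested.

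Receptor tyrosine kinases fell more often than they rose, and growth factor genes rose more often than they fell. Of 31 receptors 14 fell and 6 rose. EGFR (chr7:55019021-55211628) had 693, 770.2 and 899.8 normalized counts with RAC1 P29S and 189, 162 and 219 with the empty vector (log2 fold change 2.05 ± 0.13, limma adjusted p = 1.4e-06), and MET, the receptor of hepatocyte growth factor, had 4921, 5135 and 4620.0, against 2208, 2542 and 2803. ERBB3 (chr12:56076799-56103505), the neuregulin receptor of melanocytes, had 2025, 2325 and 1959.9 with RAC1 P29S and 6292, 6378 and 6537 with the empty vector. EGFR and ERBB3 thus moved in opposite directions, each without overlap of the groups, as in 45.0% of all genes. FLT1, a receptor of vascular endothelial growth factor, and EPHA3 had log2 fold changes of -2.53 ± 0.09 and -1.71 ± 0.07. Among 21 ligands 11 rose and 3 fell. VEGFC, the lymphangiogenic factor, had 567, 623 and 650.1 with RAC1 P29S, against 83.9, 65.7 and 78.3 with the empty vector, and NRG1, the ligand of ERBB3, had 369.6, 372 and 292, against 46.5, 71.7 and 53.2. HBEGF, an EGFR ligand, rose by 1.73 ± 0.13, whereas TGFA, another EGFR ligand, had 3892, 3854 and 3843 with RAC1 P29S, against 9946, 10132 and 10034. BDNF and KITLG rose by 2.20 and 2.08. Without RAC1 P29S library 2, 1 ligand fell.

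Most tested melanocyte differentiation genes fell, and neural crest and Schwann cell markers moved in both directions. Of 22 melanocyte differentiation genes 14 were tested, 9 fell and MITF alone rose, and TYR, TYRP1, DCT and MLANA were below the filter in both groups. MITF (chr3:69739435-69968337), the melanocyte master regulator, had 887, 663 and 758 normalized counts with RAC1 P29S and 314, 308 and 356 with the empty vector (log2 fold change 1.23 ± 0.11, limma adjusted p = 1.9e-05). SOX10 (chr22:37970686-37987422), which specifies the lineage, had 4235, 4354 and 4620.3 with RAC1 P29S and 9824, 9540.4 and 8878 with the empty vector (log2 fold change -1.10 ± 0.05). EDNRB, an endothelin receptor of melanoblasts, had 175, 142 and 151, against 424, 476 and 517, and the pigment transporter OCA2 had 14.2, 12.3 and 14.2, against 52.5, 49.3 and 63.7. PMEL, a melanosome protein, had 31.2, 15.1 and 34.5 with RAC1 P29S and 27.3, 42.8 and 43.8 with the empty vector, which overlap. S100B, the melanoma marker protein, had 105, 84.8 and 73.7 with RAC1 P29S and 349, 355 and 332 with the empty vector. SOX10 and S100B were thus detected in both groups, at lower levels with RAC1 P29S, while the pigment genes PMEL and OCA2 had low counts. Of 21 tested neural crest and Schwann cell markers 6 rose and 11 fell. NGFR, the low-affinity neurotrophin receptor, had 1985, 1949 and 2109 with RAC1 P29S, against 539, 544 and 451, and SOX9 had 98, 109 and 119, against 7.98, 9.45 and 2.75. NES, an intermediate filament, had a log2 fold change of -1.49 ± 0.06.

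Of 25 tested genes of the dedifferentiated melanoma state, 14 rose and 8 fell. CAV1, the coat protein of caveolae, had 8517, 7503 and 7851 normalized counts with RAC1 P29S and 2157, 2246 and 2122 with the empty vector (log2 fold change 1.87 ± 0.05, limma adjusted p = 6.4e-09). NUAK1, an AMPK-related kinase, had 324, 343 and 353, against 78.2, 60.1 and 79.9. The mesenchymal transcription factor genes SNAI1 and TWIST1 had log2 fold changes of -0.83 and -0.62, and ZEB1 did not pass the threshold at 0.05. Without RAC1 P29S library 1, 5 genes of this list fell. Among 19 tested cadherins and junction genes 7 rose and 3 fell. CDH4, R-cadherin, had 74.8, 38.1 and 46.3 with RAC1 P29S, against 12.2, 2.25 and 4.09. JUP, plakoglobin, had 122, 121 and 110.0 with RAC1 P29S, against 40.7, 51.3 and 55.6, TJP1 of tight junctions rose by 0.58 ± 0.06, and CTNNA1, alpha-catenin, had -0.65 ± 0.05. CDH1, E-cadherin, stayed below the filter, with 3.3, 2.79 and 3.89 with RAC1 P29S and 1.08, 6.79 and 1.73 with the empty vector. Of 5 tested epithelial markers 3 rose and 1 fell, with a lowest log2 fold change of -0.47. Those that rose were the keratins KRT7, KRT8 and KRT18, by 2.08, 1.21 and 0.99. The epithelial genes EPCAM, KRT5 and KRT19 were not listed. The summed level of the 7 listed epithelial markers of 10 was 6787 to 7520 with RAC1 P29S and 3507 to 3961 with the empty vector, and its part in the junction genes was not tested. In bulk samples, fewer cells of a type and less RNA per cell cannot be told apart.

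Matrix genes rose and fell in equal number. Of 45 tested members 17 rose and 17 fell. FN1, fibronectin, had 4196, 4114 and 4505 normalized counts with RAC1 P29S and 2057, 2098 and 2355 with the empty vector, a log2 fold change of 0.98 ± 0.06. THBS1, thrombospondin, had 23328, 22256 and 24195 with RAC1 P29S and 12125, 12809 and 13022 with the empty vector. POSTN, periostin, had 12.1, 28 and 15.5 with RAC1 P29S, against 2.21, 0 and 0.925 with the empty vector. LAMA4, a laminin chain, had 816, 913 and 975, against 3524, 3658 and 3833, a log2 fold change of -2.03 ± 0.07 (limma adjusted p = 1.9e-08). The basement membrane collagens COL4A1 and COL4A2 had log2 fold changes of -0.86 ± 0.05 and -0.51 ± 0.05. Laminin chains thus went both ways, since LAMB3 and LAMA1 rose by 1.31 and 1.42. COL1A1, a fibroblast collagen, had a log2 fold change of 1.61 ± 0.43, and its call was lost without empty-vector library 1 or 3 (1.41 and 1.28) or RAC1 P29S library 2 (1.46). Of 5 tested fibroblast markers 2 rose and none fell, with log2 fold changes of -1.52 to 1.61. The fibroblast genes COL1A2, COL3A1 and THY1 were not listed. The summed level over the 6 listed fibroblast markers of 9 was 218 to 288 with RAC1 P29S and 148 to 255 with the empty vector, which overlap. Its part in the matrix results was not tested.

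Among 18 tested integrin genes 7 fell and 4 rose. ITGB3, the beta 3 subunit of the vitronectin receptor, had 1494, 1427 and 1462 normalized counts with RAC1 P29S and 4502, 4599.6 and 4706 with the empty vector (log2 fold change -1.66 ± 0.05, limma adjusted p = 6.2e-09). ITGA6 and ITGA1, subunits that bind laminin and collagen, had log2 fold changes of -0.79 ± 0.04 and -1.17 ± 0.09. ITGA9 had 39.7, 78.6 and 52.4, against 215, 237 and 254. ITGA2, ITGA3, ITGB4 and ITGB2 rose, by 0.31 to 1.38. The ITGB2 call was lost without empty-vector library 2 or 3 (0.93 and 0.76) and without RAC1 P29S library 1 or 3 (0.93 and 0.82).

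Of 27 tested metalloproteinases, plasminogen activation genes and their inhibitors, 10 rose and 10 fell. MMP2, gelatinase A, had 2044, 2100.0 and 2279.6 normalized counts with RAC1 P29S and 939, 875 and 790.0 with the empty vector, and MMP3, stromelysin, had 99.2, 102 and 195, against 12.4, 10.6 and 9.59. TIMP1, an inhibitor of metalloproteinases, had 3364, 3402 and 3644 with RAC1 P29S, against 9789, 9650.4 and 9775 with the empty vector, and TIMP3 had 11950.3, 12101 and 12436, against 21954, 21858 and 21562. Neither proteases nor inhibitors shared 1 direction, since MMP15 and MMP17 had log2 fold changes of -1.72 and -1.74 and TIMP2 rose by 0.63. PLAU, urokinase, had 34.8, 17.4 and 14 with RAC1 P29S, against 0.679, 0 and 3.85 with the empty vector. PLAUR, the urokinase receptor, rose by 0.72 ± 0.06, and PLAT, tissue plasminogen activator, had -1.03 ± 0.07.

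The TGF-beta response did not move as 1 block: 8 of 27 members rose and 9 fell. TGFBI, a secreted adhesion protein induced by TGF-beta, had 5125, 5029.5 and 5214 normalized counts with RAC1 P29S and 1711, 1593 and 1782 with the empty vector. TGFB2, a ligand of the pathway, had 32.1, 23.8 and 48.9 with RAC1 P29S, against 3.05, 1.18 and 9.96 with the empty vector. TGFBR2, the type II receptor, rose by 0.76 ± 0.06. BAMBI and PMEPA1, feedback inhibitors of the pathway, had log2 fold changes of -1.80 ± 0.09 and -1.54 ± 0.11. SMAD7, another feedback inhibitor, rose by 0.57.

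Antigen presentation genes and immune ligands moved in both directions. Of 34 tested members of this list 15 fell and 8 rose. HLA-DRA (chr6:32439842-32445046), the class II alpha chain of HLA-DR, had 3516, 3404 and 3415 normalized counts with RAC1 P29S and 10759, 10712 and 10365 with the empty vector (log2 fold change -1.62 ± 0.04, limma adjusted p = 2.7e-09). CIITA, the class II transactivator, had 1458, 1480.2 and 1427 with RAC1 P29S and 2361, 2530.0 and 2191 with the empty vector, and CD74, the class II chaperone, had 9931, 9305 and 10765, against 24179.7, 24240.2 and 22092. HLA-B, a class I heavy chain, had 1652, 1634 and 1681 with RAC1 P29S and 5797, 6009 and 5177 with the empty vector. The class I genes named here fell unequally, at -1.77 for HLA-B, -1.28 for HLA-C and -0.36 for the light chain B2M. Without RAC1 P29S library 3, 5 members of the list rose. HLA genes are similar to each other and vary between people, so reads can be shared between them. CD274 (chr9:5450503-5470566), the gene of PD-L1, had 117, 147 and 148 with RAC1 P29S and 46.9, 35.5 and 60.9 with the empty vector (log2 fold change 1.53 ± 0.21, limma adjusted p = 3.8e-04), and PDCD1LG2, the gene of PD-L2, had 23.2, 30.8 and 31.1, against 6.84, 5.24 and 4.58. Of 37 interferon-stimulated genes 6 rose and 8 fell, a share of 37.8%. GBP2, a guanylate-binding protein, had -1.67 ± 0.13, and IFITM2, a viral entry inhibitor, 0.97 ± 0.11.

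Of 23 tested NF-kB targets and cytokines 8 rose and 7 fell. IL24, a cytokine of the IL-10 family, had 2228, 2215 and 2261 normalized counts with RAC1 P29S and 692, 944 and 633 with the empty vector. IL11, of the IL-6 family, had 1051, 1131 and 1056, against 462, 431 and 390.2, and CSF1, the macrophage growth factor, had 344, 290.4 and 391, against 104, 177 and 153. CSF2, the gene of GM-CSF, had 27.8, 36.3 and 41.2 with RAC1 P29S, against 6.83, 9.36 and 3.67. CXCL1 rose by 0.53 ± 0.08, and CXCL8, which shares its receptor, had a log2 fold change of -0.58 ± 0.10. ICAM1, an adhesion receptor for leukocytes, had -0.63 ± 0.08.

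Most targets of p53 rose and none fell by the test. Of 24 tested members 17 rose and 0 fell, beside 15.6% and 15.5% of all genes, and the median log2 fold change was 0.47. GDF15 (chr19:18374731-18389176), a secreted stress cytokine that p53 and ATF4 both induce, had 519, 594 and 508 normalized counts with RAC1 P29S and 24.2, 29.5 and 27.2 with the empty vector (log2 fold change 4.28 ± 0.14, limma adjusted p = 1.4e-08). CDKN1A, the cyclin-dependent kinase inhibitor p21, had 3993, 3820.3 and 3941 with RAC1 P29S and 2255, 2253 and 2041 with the empty vector. BAX, which permeabilizes mitochondria, had 3121, 3268 and 3151, against 1901, 1845 and 1658, and MDM2, the ubiquitin ligase of p53, had 1761, 1873 and 1669, against 1277, 1210.2 and 1376. The groups did not overlap in these 4 genes, which were named from among those that rose, beside 22.6% of all genes in this direction. BTG2 and FAS rose by 1.05 ± 0.10 and 0.89 ± 0.10.

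Cell cycle genes changed by small amounts, with log2 fold changes of -0.68 to 0.55 over the S phase genes and -0.40 to 0.44 over the G2 and M phase genes. Of 32 S phase genes 5 fell and 1 rose, 18.8% against 31.1% of all genes, and of 32 G2 and M phase genes 10 fell and 3 rose. MKI67, a proliferation marker, had 6567, 7046 and 7015 normalized counts with RAC1 P29S and 6246, 5948 and 6923 with the empty vector, which overlap. CDK1, the mitotic kinase, had -0.31 ± 0.06, and CENPF -0.40 ± 0.05. The CDK inhibitors differed from each other: CDKN1A rose by 0.84, while CDKN1B and CDKN2C had log2 fold changes of -0.65 ± 0.10 and -0.80 ± 0.06. Of 30 MYC targets and ribosome biogenesis genes 16 rose and 1 fell, by small amounts, with a median log2 fold change of 0.17. No MYC target fell without empty-vector library 1 or 3 or without RAC1 P29S library 2 or 3. ODC1, the rate-limiting enzyme of polyamine synthesis, had 1614, 1548 and 1644 with RAC1 P29S and 826, 884 and 894 with the empty vector, and NPM1, a nucleolar chaperone, rose by 0.31 ± 0.03.

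Of 17 BCL2 family genes 7 rose and 4 fell. BCL2L1, which encodes the survival protein BCL-XL, had 2079, 1943 and 1864 normalized counts with RAC1 P29S and 1185, 1328 and 1127 with the empty vector (log2 fold change 0.69 ± 0.07, limma adjusted p = 4.9e-05). The pro-apoptotic BIK reached 39.4, 42.9 and 53, against 10.2, 10.4 and 11.9. MCL1 and BCL2A1, both survival proteins, had log2 fold changes of -0.21 ± 0.04 and -1.08 ± 0.19. Without RAC1 P29S library 3, 2 members of the family fell.

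Metabolic and stress lists held few changes over 2-fold. Of 29 hypoxia and glycolysis genes 13 rose and 4 fell, among them the carbonic anhydrase CA9 at 1.10 ± 0.26, the aldolase ALDOC at 0.76 ± 0.09 and the glucose transporter SLC2A1 at 0.47 ± 0.06. Among 23 NRF2 targets 6 rose and 6 fell: FTH1, the ferritin heavy chain, had 19331, 20852 and 20332 normalized counts with RAC1 P29S and 13019.5, 11848 and 11263 with the empty vector, and NQO1, a quinone reductase, had 5614, 5459.7 and 5476, against 11099, 11013 and 10565. The ATF4 targets were split between 7 rises and 9 falls of 29, with the stress protein NUPR1 at 2.13 ± 0.43, the amino acid transporter SLC7A5 at 0.54 ± 0.05 and the asparagine synthetase ASNS at -0.48 ± 0.06. The 26 chaperones had 5 rises and 8 falls, such as the small heat shock protein HSPB8 at 1.0 ± 0.10 and the endoplasmic reticulum chaperone PDIA4 at -0.45 ± 0.04. Of 23 cholesterol synthesis genes 3 rose and 3 fell, which is 26.1%, and of the 13 mitochondrially encoded genes MT-CO3 alone passed, at -0.13. Without empty-vector library 3 no mitochondrially encoded gene fell and 4 rose, and MT-CO3 (-0.10) did not pass. Its call was also lost without empty-vector library 1 (-0.14), RAC1 P29S library 1 (-0.11) or RAC1 P29S library 2 (-0.13). Without RAC1 P29S library 3, 2 hypoxia and glycolysis genes fell, and without empty-vector library 1, 5 chaperones fell.

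Axon guidance genes, many of whose receptors signal through small GTPases, were split between 11 rises and 10 falls of 45. PLXNA2, a semaphorin receptor, had 408, 385 and 466 normalized counts with RAC1 P29S and 68.3, 68.8 and 79 with the empty vector (log2 fold change 2.52 ± 0.13, limma adjusted p = 2.3e-07). SEMA7A, a membrane-anchored semaphorin, had 1740.5, 1643 and 1761 with RAC1 P29S, against 728, 799 and 715. The SLIT receptors parted, with ROBO4 at 1.32 ± 0.11 and ROBO2 at -2.38 ± 0.30. Of 8 endothelial markers 5 were listed and 3 tested, with a median log2 fold change of -0.51. Only TIE1, a receptor of endothelial cells, passed, and it rose by 3.31 ± 0.26. PECAM1 had a log2 fold change of -0.84 that did not pass. CDH5 had 5.07, 1.1 and 7.03 normalized counts with RAC1 P29S and 1.61, 0.619 and 2.59 with the empty vector. The summed level over the 5 listed endothelial markers, TIE1 included, was 316 to 431 with RAC1 P29S and 105 to 121 with the empty vector. The part of these markers in the ROBO4 result was not tested.

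**Figure D4:**
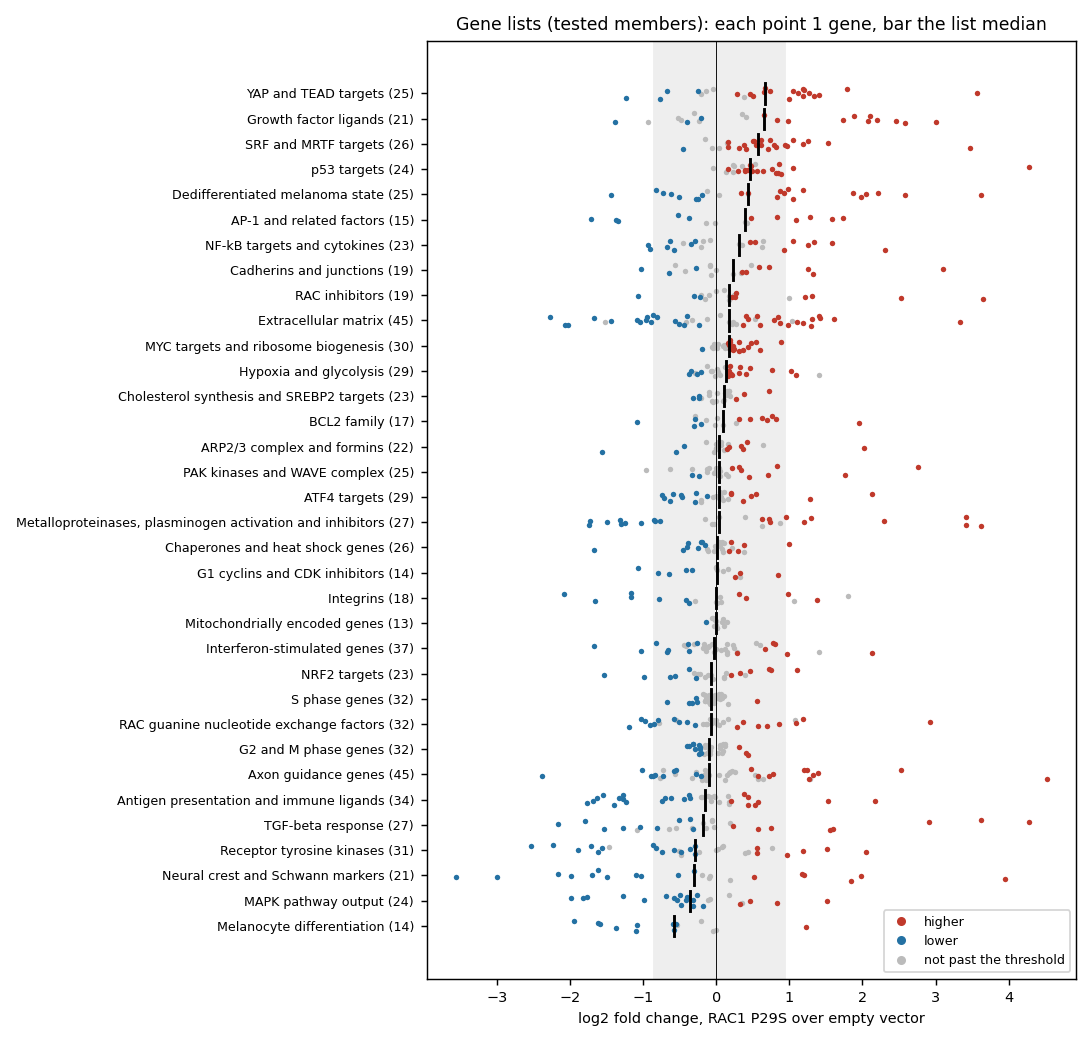
Log2 fold changes of RAC1 P29S over empty vector for the tested members of 1 list per row, each with at least 10 tested genes, ordered by list median (black bar), with members that rose in red, members that fell in blue and the others in grey. The shaded band spans the 5th to the 95th percentile of all tested genes. The YAP and TEAD list (0.66) and the growth factor ligands (0.66) have the highest medians, and melanocyte differentiation (-0.58) the lowest.

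The effect of RAC1 P29S was then set against that of VAV1, an exchange factor upstream of RAC1, measured in separate libraries with their own empty-vector controls. Cells of the VAV1 experiment were given vehicle. The experiments were normalized separately and share no library, so a difference of effects carries these differences too. In this experiment VAV1 had 15579, 14839 and 15689.6 normalized counts in VAV1 cells and 2.74, 4.62 and 3.84 in their empty-vector controls. The VAV1 comparison called 6091 of 14067 genes (43.3%), 3277 higher (23.3%) and 2814 lower (20.0%). Of 13692 genes tested in both, 2872 passed in both in the same direction and 144 in opposite directions. The effects correlated at 0.743 across these genes, which are not independent replicates. Genes shared between the effects made up 69.9% of the RAC1 P29S calls and 50.7% of the VAV1 calls, opposite ones included. The difference of effects itself passed in 2056 genes (15%), 1002 with the RAC1 P29S effect above that of VAV1 (7.32%) and 1054 with it below (7.70%). With upper-quartile scaling the split was 1207 above and 798 below, so the balance of directions depends on scaling.

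Of the 26 SRF and MRTF targets, 14 had a higher effect with RAC1 P29S than with VAV1 and 2 a lower one, beside 7.32% and 7.70% of all genes. TAGLN had log2 fold changes of 3.47 ± 0.23 with RAC1 P29S and 1.61 ± 0.26 with VAV1, and the difference was 1.86 ± 0.39 (limma adjusted p = 0.0053). ACTG1 had 46316, 42956 and 45250.0 normalized counts in VAV1 cells and 43055, 35529.8 and 38075 in their controls, a log2 fold change of 0.21 ± 0.06, and the RAC1 P29S effect was higher by 0.76 ± 0.11 (limma adjusted p = 4.5e-04). MYL9 had log2 fold changes of 1.53 with RAC1 P29S and -0.27 with VAV1, and CNN2, a calponin, had 0.95 with RAC1 P29S and 0.01 with VAV1. Both differences passed. For the YAP and TEAD targets 6 of 25 members had a higher and 4 a lower effect with RAC1 P29S. CTGF, AXL and CYR61 differed between the effects by -0.10 ± 0.08, 0.10 ± 0.08 and 0.19 ± 0.09 on the log2 scale, none of which passed.

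The MAPK output genes and the integrins also had more effects above than below those of VAV1, beside 7.32% above and 7.70% below among all genes. For every list, the differences from VAV1 were counted with the deposited scaling only. Of 23 MAPK output genes tested in both, 13 had a higher effect with RAC1 P29S and 2 a lower one: SPRY2 had log2 fold changes of -0.69 with RAC1 P29S and -1.82 with VAV1, a difference of 1.13 ± 0.06. Of 18 integrin genes 10 had a higher and none a lower effect, and ITGB3 differed by 1.05 ± 0.06. SOX10 had -1.10 with RAC1 P29S and -2.07 with VAV1, and ERBB3 had -1.61 with RAC1 P29S and -2.59 with VAV1, so both fell further with VAV1. NGFR had 1.98 ± 0.08 with RAC1 P29S, against 0.12 ± 0.07 with VAV1, and the difference of 1.86 ± 0.11 passed (limma adjusted p = 5.3e-08). Fibronectin and MMP2 moved in opposite directions: FN1 had 0.98 with RAC1 P29S and -0.55 with VAV1, and MMP2 had 1.30 with RAC1 P29S and -0.62 with VAV1. Both genes also differed between the controls. In the empty-vector cells given vehicle, FN1 had 1505, 1516 and 1350 normalized counts and MMP2 had 4265, 3964 and 4056.

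The ATF4 targets, the mitotic genes and the chaperones had more effects below than above those of VAV1, beside 7.70% below and 7.32% above among all genes. Of 29 ATF4 targets 19 had a lower and 1 a higher effect, of 32 G2 and M phase genes 19 a lower and none a higher effect, and of 25 chaperones tested in both 11 a lower and none a higher effect. ASNS had log2 fold changes of -0.48 ± 0.06 with RAC1 P29S and 0.67 ± 0.07 with VAV1, opposite directions that differed by -1.15 ± 0.09. ASNS also differed between the controls, with 1398, 1331 and 1444 normalized counts untreated and 2109, 2443 and 2104 with vehicle. The lowest difference was that of SH3GL2, the endocytic protein endophilin A1, which had 32.1, 25.2 and 21.8 normalized counts with RAC1 P29S and 28.5, 29.4 and 30.2 with its empty vector, 476, 484 and 476 with VAV1 and 7.43, 8.75 and 13.6 with its vehicle control, a difference of -5.66 ± 0.32 (limma adjusted p = 3.9e-08). The EGFR ligand AREG had 183, 155 and 145 with VAV1 and 42.4, 36 and 31.7 with its control, while RAC1 P29S cells had 43.3, 40.8 and 48.5, against 73.1, 70.0 and 50.3. BASP1 rose by 6.30 ± 0.29 with RAC1 P29S and 6.25 ± 0.18 with VAV1, a difference of 0.06 ± 0.33 that did not pass. TGM2 had 3.18 with RAC1 P29S and 1.74 with VAV1, and the difference of 1.45 ± 0.07 passed. Its controls also differed, with 1516, 1732 and 1542 normalized counts untreated and 4698, 4488 and 4639 with vehicle. RAC1 P29S cells had 14834, 13953 and 14714 and VAV1 cells 14655, 15805 and 15622.

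**Figure D5:**
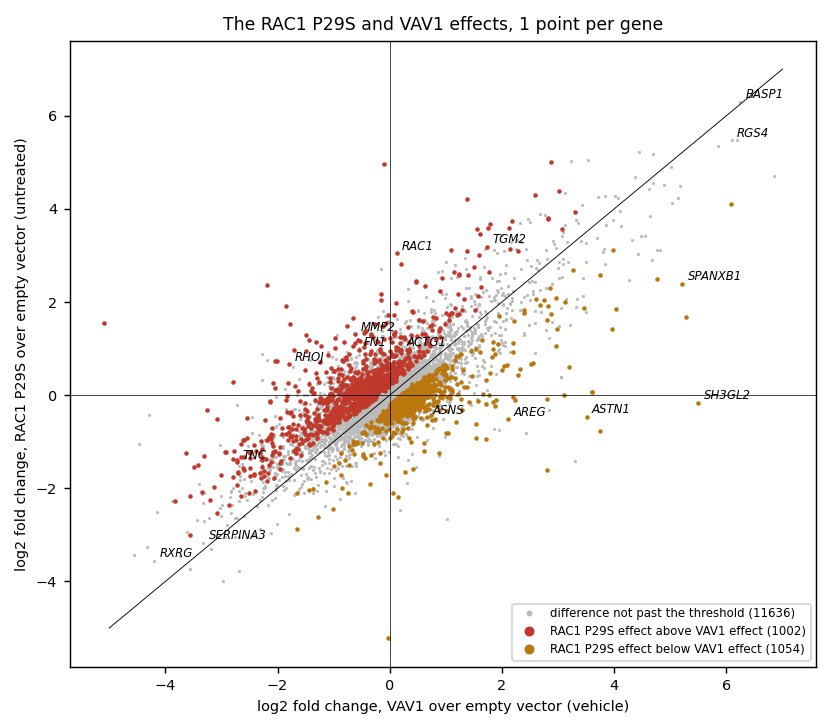
Log2 fold change of VAV1 over empty vector, both with vehicle (horizontal), and of RAC1 P29S over empty vector, both untreated (vertical), for the 13692 genes tested in both. The 1002 genes whose RAC1 P29S effect is above the VAV1 effect are red, the 1054 with it below are orange, and the line marks equal effects. BASP1 lies near the line, RAC1 lies above it and SH3GL2 far below it.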

How the data were processed

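RNA was extracted with a column kit and sequenced from TruSeq libraries, per the labels' protocols. The submitters' processing notes name kallisto, DESeq2 and GRCh38, without versions. The authors deposited 1 value per gene symbol and library, which the values show to be log2 of a normalized count plus 1. Read numbers are not given in the sources used here, so no counting interval is printed, and 3 libraries per group limit the precision. Undone logs gave the normalized counts printed.

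Log2 values were fitted with limma 3.58.1 in R 4.3.3 (trended variance, robust estimation) with 1 mean per group over the 6 libraries, for genes with at least 10 normalized counts in at least 3 of them, and p-values were adjusted by the Benjamini-Hochberg method over all 14036 genes at a threshold of 0.05. The difference from VAV1 was fitted over 12 libraries and 13692 genes. Both fits were tested on simulated data with 200 changed genes. Of 100 genes changed 2-fold, 71 were recovered in the comparison of RAC1 P29S with the empty vector and 60 in the difference from VAV1. Of 100 genes changed 1.25-fold, 6 were recovered in that comparison and 13 in the difference from VAV1. Among unchanged genes, 1 of 13836 was called in that comparison and 6 of 13492 in the difference from VAV1. Far fewer genes changed there than the 31.1% called in the libraries, and the adjusted p depends on that share. The recoveries therefore describe the simulation and not this comparison. Named genes were RAC1 to RAC3, VAV1, the 15 highest and 15 lowest fold changes among called genes with a mean of at least 64 normalized counts in the higher group and no overlap, the 5 largest count differences per direction, up to 6 called members per list with the smallest adjusted p and its defining members, and the 8 highest and lowest differences from VAV1. Further list members were named after their values were seen, and a few genes and 1 list are not reported here. The comparison and the gene lists were chosen with earlier results of these data known. Coordinates come from GENCODE release 29 and promoters from RefSeq. Alternatives were 4 scalings, 2 filters, 2 pseudocounts, another variance estimate, a test against a fold change of 1.5, a replicate block, a fit of all 15 libraries and the omission of each library. Replicate numbers are not said to pair the cultures.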

Additional observations from a re-analysis of the deposited data

Results flagged for a closer look

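The RAC1 P29S effect was tested against the VAV1 effect, and these genes passed the test of the difference itself (limma adjusted p under 0.05). Each value is the RAC1 P29S log2 fold change minus the VAV1 log2 fold change. Vehicle, the time of the experiment and separate normalization cannot be told apart from the difference in gene.

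The RAC1 P29S effect was higher for RAC1 by 2.93, for the pseudogene SLC2A3P1 by 2.94 and for the readthrough transcript ST20-MTHFS by 2.67. It was higher for ADAMTS4, a protease of the matrix, by 2.63, for HES2 by 2.61, for CERS4, a ceramide synthase, by 2.55 and for RHOJ, an endothelial GTPase, by 2.46. SLC2A3P1, ST20-MTHFS and CERS4 did not pass with RAC1 P29S itself (-0.32, 0.97 and -0.52), and had -3.26, -1.70 and -3.07 with VAV1. The vehicle and untreated controls, normalized separately, did not overlap for any gene of this paragraph. CERS4 controls had 122, 119 and 109 normalized counts with vehicle and 17.4, 29.3 and 31.3 untreated. HES2 controls had 46.9, 27.3 and 53.7 with vehicle and 23.9, 4.20 and 4.88 untreated, and RHOJ controls 140, 156 and 128, against 63.2, 63.0 and 62.8. Controls were higher with vehicle for the genes with a higher effect except SLC2A3P1, and lower with vehicle for those with a lower effect. The RAC1 P29S effect was lower for SH3GL2 (-5.66), ZNF385D (-4.52), ASTN1 (-3.98), FBXL7 (-3.10), SPANXB1 (-2.83) and AREG (-2.62). Of these, only SPANXB1 passed with RAC1 P29S itself, at 2.39. SPANXA2 and SPANXA1 had identical values and differences of -3.53 each, and reads cannot be told apart between such near-identical copies.

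Of the genes with the largest count differences, the RAC1 P29S effect was higher for ACTG1 by 0.76, ACTB by 0.57, FLNA by 0.53 and TGM2 by 1.45. For TGM2 the controls also differed, as given above. GNAS, CD74, SPARC, SERPINE2 and TNC fell with RAC1 P29S and had effects above those of VAV1 by 0.50, 0.75, 0.31, 0.44 and 1.28.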

How the results depend on the processing

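The count of genes past the threshold in the comparison of RAC1 P29S with the empty vector stayed within 1.5 times of 4369 under every scaling, filter, pseudocount and variance estimate tried. A test against a fold change of 1.5 in place of 0 passed 801 genes for this comparison and 91 for the difference from VAV1 (2056 in the fit as reported), since it asks for a larger change. Of 210 named genes called with RAC1 P29S, 148 kept the call in every alternative. The call was lost against a fold change of 1.5 by 62 of them, ACTB and ALDOC included, and in another setting by 6. Leaving out 1 library gave 3426 to 4134 genes and, for the difference from VAV1, 1527 to 2055. Directions that turned when 1 library was left out were those of genes that did not pass: GAPDH (log2 fold changes of -0.0016 to 0.060), MKL1 (-0.24 to 0.0017), RAC3 (-0.061 to 0.23) and ZEB1 (-0.061, and -0.051 without another library, to 0.12). The SERPINE2 difference from VAV1 was not past the threshold with quantile normalization (log2 difference 0.11, adjusted p = 0.18 by limma). The difference of HES2 was lost with 8 of the single libraries left out (2.20 to 2.51) and that of SLC2A3P1 with 3 (2.75 to 2.85).

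With the replicate number as a block, 3888 genes passed, and 1567 for the difference from VAV1. Residuals of same-numbered libraries correlated at 0.0125, -0.0102 and -0.0271, so the numbers were not used as a pairing.

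Depth limits genes with low counts, whose fold changes are understated by the pseudocount.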
